A study of Mus musculus with 56 samples.

Results

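The genes described are Prox1, Tbx3 and Ptn, 3 of the 24410 Ensembl gene rows in a single-cell expression table of mouse colon tumors. They were found in that table by Ensembl ID and were singled out because their values rise together across these cells. The correlations among the 3 therefore describe the choice and are no test of it.

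PROX1 is a homeodomain transcription factor that specifies lymphatic endothelium, is active in enteroendocrine precursors and is a known target of Wnt signaling in intestinal tumors. TBX3 is a T-box transcription factor that acts mainly as a repressor, with genes of cyclin-dependent kinase inhibitors among its known targets, and it can also act with the beta-catenin cofactor BCL9. Ptn encodes pleiotrophin, a secreted growth factor that binds heparan sulfate, signals through receptors such as PTPRZ1, ALK and syndecans, and is best known from the developing nervous system and from tumor stroma.

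All cells came from 1 male ApcMin/+ mouse of 12 weeks, which carries a germline truncating allele of Apc, and loss of the remaining copy activates Wnt signaling in its tumors. The animal had drunk 2% dextran sulfate sodium, which injures the colonic lining, over 5 days at 10 weeks of age. Cells of 3 colon tumors were pooled, sorted as DAPI- Cd31- Cd45- Epcam+ Cd24+, and made into cDNA by Bead-seq, a bead-based single-cell method. Only cDNAs positive for Lgr5 after 32 cycles of PCR were sequenced, and neither an untreated animal nor a second animal was among the samples. Values were TPM, the share of a library's transcripts scaled per transcript length, which allow genes to be compared within a cell.

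The 56 libraries were read as 50 cells, because 6 pairs of libraries resembled each other far more (Pearson's r 0.957 to 0.992) than any other pair (at most 0.782) and were averaged. A cell had a median of 5903 genes at 1 TPM or more, but the cell N708-N503 had 1316 and gave 85.1% of its TPM to the pseudogene Gm10925, against a median of 8.82%. Epcam and Cd24a reached 1 TPM in all 50 cells, and Pecam1 and Ptprc, the genes of CD31 and CD45, in 0. Cells are named by their i7 and i5 index pair. Cells were also split by index, which the labels give without naming a batch: a first i7 group (N704 through N707, 32 cells), a second i7 group (N708 through N710, 18 cells), and i5 groups of 26 cells (N502 through N505) and 27 cells (N506 through N517) that share 3 averaged cells. Because the cells of 1 mouse are not replicates, no p-value is given, and intervals on shares are exact binomial (95%) and cover counting error only.

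Where the genes lie and how their starts read is shown first, because the pleiotrophin gene and Prox1 differ here. Prox1 (ENSMUSG00000010175) spans chr1:190118035-190170714 on the minus strand, Tbx3 (ENSMUSG00000018604) chr5:119670669-119684724 on the plus strand, and Ptn (ENSMUSG00000029838) chr6:36714929-36810220 on the minus strand, all in GRCm38. RefSeq promoter windows (GRCm38.p6, 250 bases before and 50 after a start) were found for 2 of the 3 genes, Prox1 with 2 windows and Ptn with 1. Below are the bases before both the RefSeq start and the annotated gene start, 5′ to 3′ on the gene's strand: for Prox1 chr1:190170828-190171077, inside an intron of the antisense gene Prox1os, and for Ptn chr6:36810221-36810429. Capitals mark motif matches.
Prox1: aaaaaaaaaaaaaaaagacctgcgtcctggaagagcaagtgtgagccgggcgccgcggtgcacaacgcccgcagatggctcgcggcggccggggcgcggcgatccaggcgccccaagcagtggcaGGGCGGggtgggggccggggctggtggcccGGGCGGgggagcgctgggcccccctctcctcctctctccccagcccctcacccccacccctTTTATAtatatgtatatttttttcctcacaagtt
Ptn: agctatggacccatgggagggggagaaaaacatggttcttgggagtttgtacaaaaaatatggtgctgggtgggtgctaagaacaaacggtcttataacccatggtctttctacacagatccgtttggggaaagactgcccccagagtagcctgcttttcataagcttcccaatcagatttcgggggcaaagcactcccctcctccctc

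The motifs searched, on both strands, were CTTTGA, the TCF/LEF core, GGTGTGA, the T-box core, GGGCGG, the GC box, TATAAA, the TATA box, and CACGTG, the E-box. They occur in 16%, 3.98%, 35.7%, 13.6% and 7.15% of all 32851 RefSeq promoter windows of 300 bases. The upstream Prox1 window held GGGCGG at positions -125 and -95 from the start and TATAAA on the opposite strand at -34. The other Prox1 window (chr1:190169466-190169765) held GGGCGG at -58 from its start, and the Ptn window held none of the 5 motifs. GC content was 64.3% and 57.3% in the Prox1 windows and 52% in the Ptn window, beside a median of 52.7% over all windows. A match is only a string of letters, and the absence of a match says nothing about any factor.

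Both transcription factor genes were present in most cells. Prox1 ran from 0 to 66.8 TPM with a median of 14.7 and middle quartiles of 2.93 and 32.2. The gene was present, at 1 TPM or more, in 41 of the 50 cells (82%, interval 68.6% to 91.4%). It passed 10 TPM in 30 and was listed at 0 in 2. The cells formed a gradient with no gap at the threshold, since the nearest values were 0.72 and 1.39 TPM.

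Tbx3 was the most widespread and the highest of the 3. It ran from 0 to 247 TPM with a median of 20.1 and quartiles of 6.04 and 43 TPM. It reached 1 TPM in 44 cells (88%, interval 75.7% to 95.5%) and 10 TPM in 35, and 1 cell was listed at 0. Its highest value, in cell N706-N502, was 12.3 times its median, whereas the highest Prox1 value was 4.54 times the Prox1 median. The 10 highest cells held 61.0% of all Tbx3 TPM, against 48.6% for Prox1.

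Ptn, the ligand gene, was the least widespread. It ran from 0 to 55.1 TPM with a median of 4.73 and quartiles of 0.275 and 17.6. It reached 1 TPM in 36 cells (72%, interval 57.5% to 83.8%) and 10 TPM in 19, was listed at 0 in 8 cells, and had 62.6% of its TPM in the 10 highest cells. Only 6 cells lay between 0 and 1 TPM, and the values nearest the threshold were 0.71 and 1.26.

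In TPM within the same cell, Tbx3 exceeded Prox1 in 36 of 50 cells and Ptn in 41, and Prox1 exceeded Ptn in 35. The order of the medians was thus Tbx3, Prox1, Ptn, but the ranges of all 3 overlapped over most of their length. On the scale of log2(TPM + 1), the SD across cells was 1.88 for Prox1, 2.06 for Tbx3 and 1.94 for Ptn. The 6 averaged pairs give a measure of technical spread, though how those pairs arose is unknown. The fold between the paired libraries had a median of 1.11 for Prox1, 1.06 for Tbx3 and 1.15 for Ptn. The largest was 1.76 for Prox1 and 1.90 for Ptn. For Tbx3 it was 4.24, from 17.6 and 4.14 TPM in the libraries N708-N517 and N709-N507, while the other 5 pairs stayed under 2-fold.

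**Figure D1:**
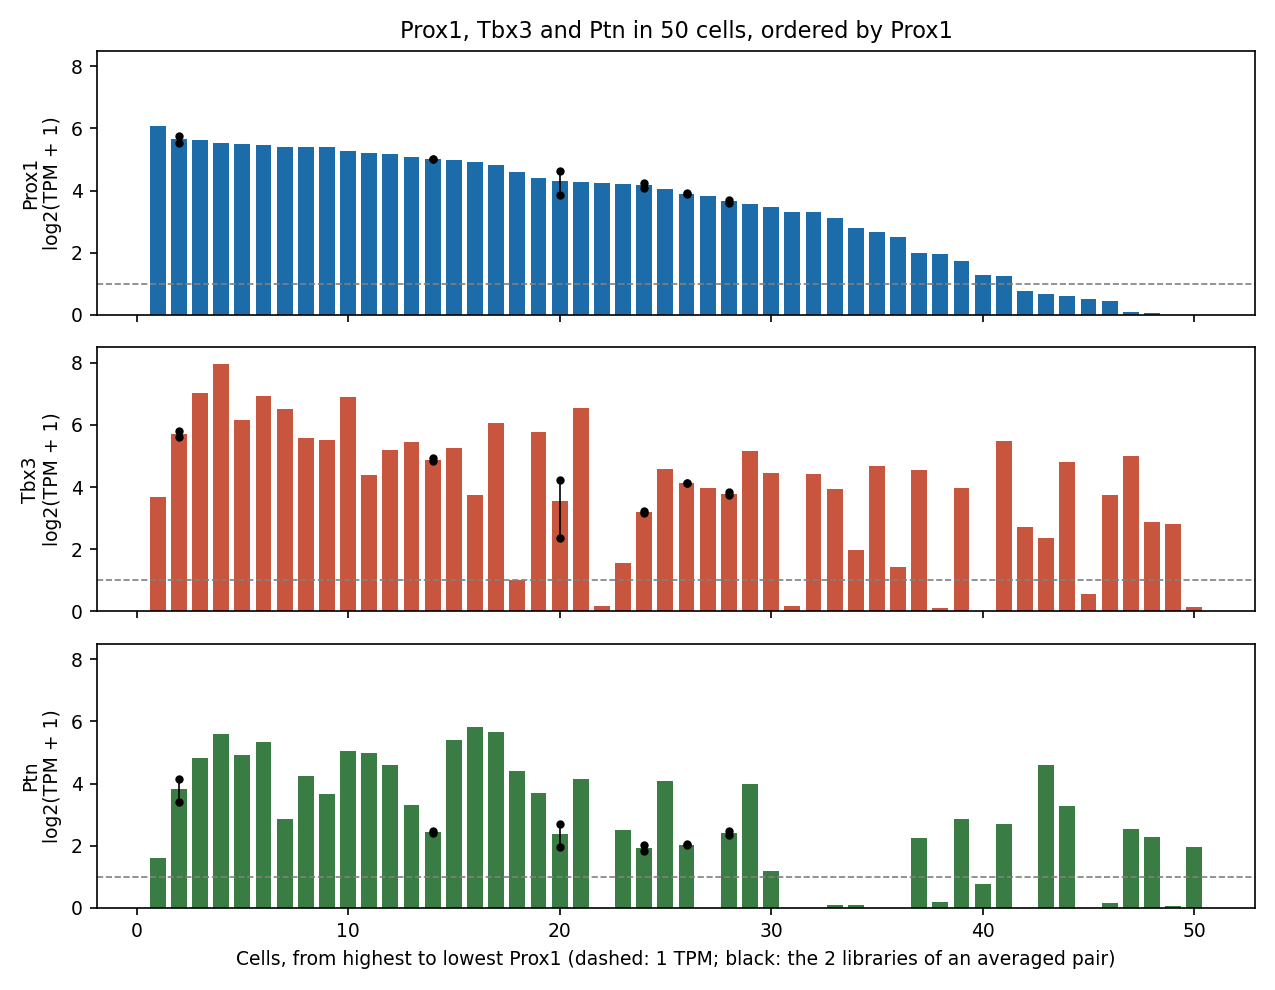
Bars give log2(TPM + 1) of Prox1, Tbx3 and Ptn in each of 50 cells, ordered from the highest to the lowest Prox1; the dashed line marks 1 TPM and black points give both libraries of the 6 averaged pairs. Bars of Tbx3 and Ptn are mostly tall on the left, where Prox1 is high, but several tall Tbx3 bars and a few Ptn bars stand on the right, where Prox1 is below 1 TPM.

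Levels differed between the i7 groups. The median of Prox1 was 19.3 TPM in the first i7 group and 9.24 in the second, that of Tbx3 25 and 14.5, and that of Ptn 10.3 and 3.44. The full ranges of each gene overlapped between the groups, with Prox1 up to 66.8 and 49.2 TPM, Tbx3 up to 247 and 51.1, and Ptn up to 55.1 and 30.6. Between the i5 groups the medians were closer, at 18.5 and 15.5 TPM for Prox1, 18.4 and 20.8 for Tbx3, and 5.3 and 4.7 for Ptn. Whether the index groups differ by handling or by the cells they received was not tested.

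Joint presence was common. At 1 TPM, all 3 genes were seen in 31 of 50 cells (62%, interval 47.2% to 75.3%), exactly 2 of them in 10, exactly 1 in 8 and none in 1. The cell with none was N708-N503, the cell with few genes, where Prox1 was 0.44, Tbx3 0.49 and Ptn 0 TPM. Cells with all 3 had a median Prox1 of 29 TPM, Tbx3 of 35.3 and Ptn of 13.2, so most lay well above the threshold.

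Partial combinations were not alike. Prox1 with Tbx3 but not Ptn occurred in 6 cells, in which Prox1 ran from 4.69 to 13.2 TPM and Tbx3 from 1.69 to 24.5. Tbx3 with Ptn but not Prox1 occurred in 4 cells, with Tbx3 from 4.15 to 31.3 and Ptn from 3.8 to 23.1. Prox1 with Ptn but not Tbx3 occurred in 0 cells, which allows a share of up to 7.11%, although cell N705-N505 had Tbx3 at 1 TPM, just on the threshold, with Prox1 at 23 and Ptn at 20.1. Prox1 alone was seen in 4 cells, Tbx3 alone in 3 and Ptn alone in 1.

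Of 36 cells with Ptn, 35 also had Tbx3 (97.2%, interval 85.5% to 99.9%), and 31 had Prox1 (86.1%, interval 70.5% to 95.3%). Among the 14 cells without Ptn, 9 had Tbx3 (64.3%, interval 35.1% to 87.2%) and 10 had Prox1 (71.4%, interval 41.9% to 91.6%). These intervals overlap.

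At 10 TPM, 17 cells held all 3 genes, 9 held Prox1 and Tbx3, 9 held Tbx3 alone and 10 held none. High Ptn without high Prox1 was rare. Of 30 cells with Prox1 at 10 TPM, 18 had Ptn at 10 TPM (60%, interval 40.6% to 77.3%), against 1 of the 20 others (5%, interval 0.127% to 24.9%). High Tbx3 without high Prox1 was less rare, at 9 of 20 cells (45%, interval 23.1% to 68.5%), against 26 of 30 with it (86.7%, interval 69.3% to 96.2%). These shares restate the joint variation for which the genes were chosen.

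**Figure D2:**
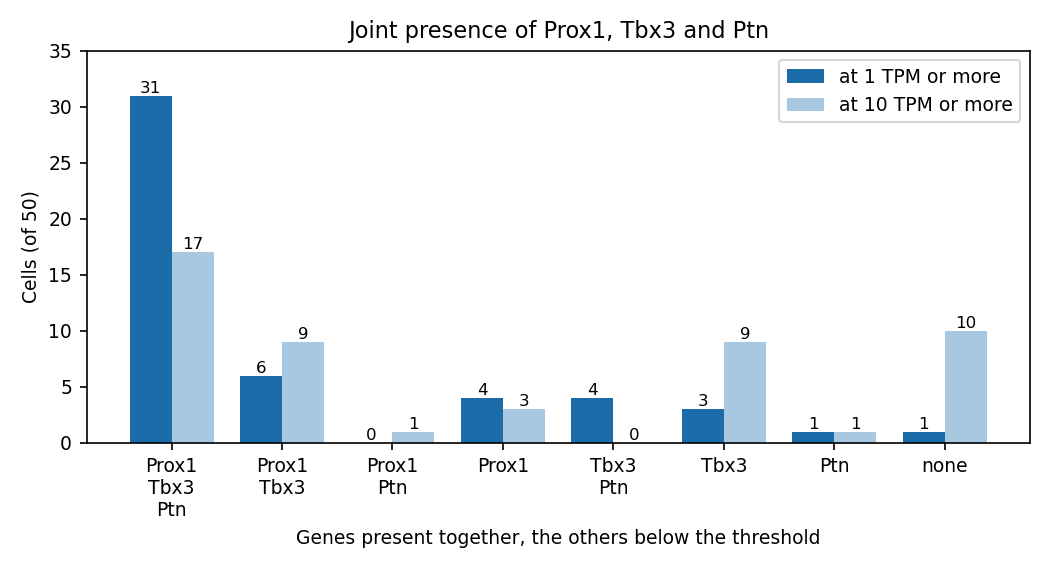
Number of cells, of 50, with each combination of Prox1, Tbx3 and Ptn at 1 TPM or more (dark) and at 10 TPM or more (light). The combination of all 3 genes is the tallest bar at both thresholds, with 31 and 17 cells, and Prox1 with Ptn but without Tbx3 holds 0 and 1.

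The cells at the extremes were partly shared. Of the 10 cells highest for each gene, 7 were shared by Prox1 and Tbx3, 5 by Prox1 and Ptn, 6 by Tbx3 and Ptn, and 5 by all 3. Cell N706-N502 was among them, with Prox1 at 45.5, Tbx3 at 247 and Ptn at 46.8 TPM. At the low end the sharing was thinner, with 2, 3 and 5 cells for the same pairs and 1 for all 3.

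Several cells went apart. The highest Prox1 value, 66.8 TPM in N704-N504, came with Tbx3 at 12.0 and Ptn at 2.03, which ranked 34th and 35th of 50. Cell N705-N506 had Prox1 at 17.8 with Tbx3 at 0.12 and Ptn at 0. Conversely, Tbx3 was 43.2 TPM in N710-N508 and 31.3 in N707-N508, where Prox1 was 1.39 and 0.06. Ptn was 23.1 in N706-N505 with Prox1 at 0.58 and Tbx3 at 4.15, and that cell held 30 of 30 G2/M genes and 18 of 24 S phase genes at 1 TPM. Another cell with Tbx3 (27.1 TPM) and Ptn (8.73) but little Prox1 (0.51), N705-N507, held 28 G2/M and 20 S phase genes. The other cells with Tbx3 and Ptn but not Prox1 held fewer G2/M genes, at 16 in N710-N506 and 5 in N707-N508, with 23 and 8 S phase genes. Some cells with Prox1 held as many, such as N708-N502 with 28 G2/M genes at a Prox1 of 7.72 TPM.

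Across the 50 cells, Spearman's rho was 0.61 between Prox1 and Tbx3, 0.59 between Prox1 and Ptn, and 0.65 between Tbx3 and Ptn. Pearson's r of log2(TPM + 1) was 0.52, 0.54 and 0.63. It was 0.48, 0.52 and 0.61 with the 2 cells most distant from the first gene's median left out. Restricted to cells with both genes at 1 TPM or more, rho was 0.53 (37 cells), 0.44 (31 cells) and 0.50 (35 cells). These values come from the cells in which the genes were chosen for rising together, so they describe that choice and add no support.

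Within the index groups each pair had a positive rho. For Prox1 and Tbx3 it was 0.65 and 0.52 in the first and second i7 groups and 0.65 and 0.54 in the i5 groups. For Prox1 and Ptn it was 0.59 and 0.39, and 0.51 and 0.61. For Tbx3 and Ptn it was 0.67 and 0.55, and 0.53 and 0.82, and it was 0.82 when the cells of i5 index N505 were left out. With the third gene held fixed as a partial rho, the values were 0.36 for Prox1 and Tbx3, 0.32 for Prox1 and Ptn and 0.46 for Tbx3 and Ptn, an alternative chosen after the data were seen.

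Among the rhos of 9165 genes with Prox1, Tbx3 ranked 7th and Ptn 10th. Among those with Tbx3, Ptn ranked 2nd and Prox1 5th. Among those with Ptn, Tbx3 ranked 7th and Prox1 20th. The ranks are positions in the list from which the genes were chosen.

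**Figure D3:**
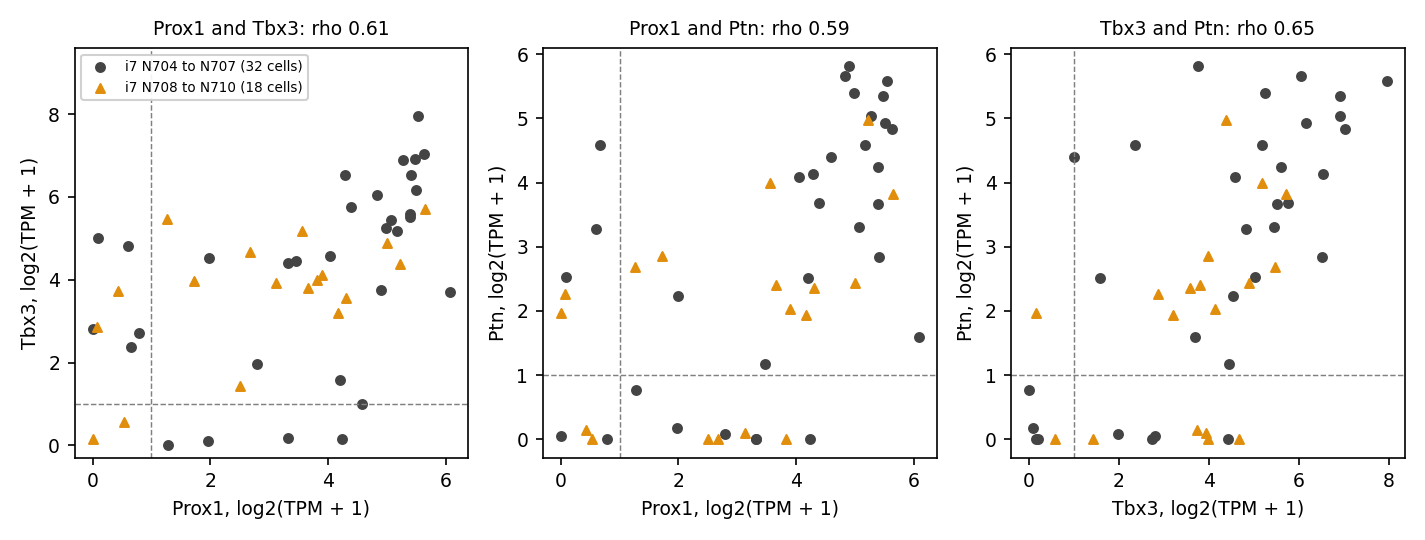
Each point is a cell, with log2(TPM + 1) of a pair of genes on the axes, circles for the first i7 group (32 cells) and triangles for the second (18 cells); dashed lines mark 1 TPM. Points rise from lower left to upper right in all 3 panels (rho 0.61, 0.59 and 0.65), and a row of points at a Ptn of about 0 spans low to middle Prox1 and Tbx3.

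Other measures of the cells were set beside the 3 genes. The number of genes per cell had a rho of -0.09 with Prox1, -0.06 with Tbx3 and -0.02 with Ptn over all cells. With Prox1 it was -0.26 in the first i7 group and 0.43 in the second, with Tbx3 -0.12 and 0.22, and with Ptn 0.06 and 0.15. The mean of the Wnt targets had 0.27, 0.28 and 0.34 over all cells. It had 0.20, 0.17 and 0.35 in the first i7 group and 0.37, 0.62 and 0.26 in the second. The share of TPM given to Gm10925 had -0.08, -0.14 and -0.24. Holding the mean of the S phase list fixed left rhos of 0.55, 0.55 and 0.62 for the pairs in the order above, and holding the mean of the Wnt targets fixed left 0.58, 0.55 and 0.62.

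Antisense neighbors were checked because no source used here says whether counting was stranded. Prox1os overlaps the start of Prox1 and was at 1 TPM or more in 7 cells (up to 14.2 TPM), all of which also had Prox1, and it exceeded Prox1 in 1. Tbx3os1 overlaps Tbx3 and was seen in 5 cells (up to 58.8 TPM), and Tbx3os2, within 20 kb, in 9 cells (up to 342 TPM). All of these cells also had Tbx3, and the antisense value was the higher in 2 and 3 of them. Where a gene and its antisense partner overlap, their reads cannot be told apart here. Tbx3os2 does not overlap Tbx3. Ptn has no annotated overlap.

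The remaining comparisons concern 9163 other genes seen at 1 TPM or more in at least 20% of cells. A rho of 0.4 or more was reached with Prox1 by 251 of them (2.74%), with Tbx3 by 236 (2.58%) and with Ptn by 299 (3.26%). Of these, 78 genes reached it with all 3, 104 with Prox1 alone, 101 with Tbx3 alone and 135 with Ptn alone. Negative relations were fewer, with a rho of -0.4 or less for 74 genes with Prox1 (0.808%), 63 with Tbx3 (0.688%) and 89 with Ptn (0.971%), and 11 genes with all 3. The counts at 0.4 or more depended on the cells taken: without i5 index N508 they were 444 for Prox1 (4.88%) and 383 for Tbx3 (4.21%). Since the 3 genes were chosen for varying together, shared relations follow in part from the choice.

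The 10 genes that went most with all 3 are given by the lowest of their rhos, among genes with the same sign in both i7 groups. The leading gene was 1110004F10Rik (0.59 with Prox1, 0.62 with Tbx3, 0.58 with Ptn), a gene without a name of its own. Nkd1, a feedback inhibitor of Wnt signaling, followed with 0.62, 0.58 and 0.67, and had 0.51 or more with each gene in both i7 groups. Ifitm1, an interferon-induced membrane protein gene, had 0.58, 0.68 and 0.72, with up to 9896 TPM in a cell. Its rhos fell to 0.18, 0.28 and 0.40 in the second i7 group, and reads can be shared among Ifitm genes, so it is uncertain.

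Vim, which encodes the intermediate filament vimentin, had 0.53, 0.59 and 0.66. The metallothionein gene Mt3 had 0.57, 0.56 and 0.61 over 24 cells with a signal, and Apcdd1, a membrane inhibitor of Wnt signaling, 0.53, 0.55 and 0.61 over 20 cells. Tcf4, which encodes a basic helix-loop-helix factor and not the Wnt effector TCF7L2, had 0.58, 0.59 and 0.53. Tecr (fatty acid elongation), Myl12a (a myosin light chain beside its near copy Myl12b) and Ypel4 completed the 10, with lowest rhos of 0.57, 0.55 and 0.53. In the second i7 group, however, Myl12a had 0.08 with Prox1 and Tecr 0.20 with Tbx3.

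The 10 genes that went most against all 3 are given in the same way. Lgals4, which encodes the intestinal lectin galectin-4, had -0.44 with Prox1, -0.51 with Tbx3 and -0.70 with Ptn, the lowest rho with Ptn of any gene in the comparison. Myo1a, the brush border myosin, had -0.52, -0.47 and -0.57, and the mitochondrial creatine kinase gene Ckmt1 -0.54, -0.45 and -0.50. Sulf2, an enzyme that removes sulfate from heparan sulfate chains, had -0.50, -0.52 and -0.49, and Crip1, a LIM domain protein gene, -0.48, -0.55 and -0.50. Oit1, Plac8, Acp5, Myl7 and Mastl made up the rest, with highest rhos from -0.46 to -0.40. In the second i7 group all of these rhos were smaller in size, for example -0.19, -0.15 and -0.49 for Lgals4. Their negative sign there was required by the rule and is no result.

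Tbx3 had its highest rhos with Ifitm1 (0.68), Gpcpd1 (0.62), 1110004F10Rik (0.62) and Ets2 (0.60), an ETS transcription factor gene seen in all 50 cells. Wnt10a, a Wnt ligand gene seen in 14 cells, Tcf4, Usp18, Vim, the TGF-beta family ligand gene Gdf11 and Tecr followed at 0.58 to 0.59. Its lowest were Golm1, a Golgi membrane protein gene (-0.59), Crip1 (-0.55), Cebpa, a transcription factor gene (-0.54), Chdh, a choline dehydrogenase gene (-0.53), Sulf2 (-0.52) and the replication helicase gene Mcm2 (-0.51). Cebpa and Chdh had only -0.25 and -0.20 with Prox1. In the second i7 group, Sulf2 had only -0.12 with Tbx3, while Mcm2 had -0.47.

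Ptn had its highest rho with Spock2, which encodes a heparan sulfate proteoglycan of the extracellular matrix. Spock2 had 0.77 with Ptn, 0.53 with Tbx3 and 0.37 with Prox1, and its rho with Ptn was 0.75 and 0.76 in the i7 groups. Ifitm1 (0.72), Ifitm7 (0.69), the kinase gene Pim1 (0.69), Nkd1 (0.67), Vim (0.66), Zswim4 (0.65), Ube2h (0.64), Aspscr1 (0.62) and Tecr (0.61) followed. Below Lgals4, the lowest were Plac8 (-0.63), the adhesion molecule gene Ceacam1 (-0.62), Oit1 (-0.62), Cd80 (-0.59) and Baiap2l2 (-0.57), which encodes a membrane-bending protein. In the second i7 group, however, Baiap2l2 had -0.05 with Ptn and Cd80 -0.25, against -0.72 and -0.56 in the first. Oit1 had -0.58 in the second.

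**Figure D4:**
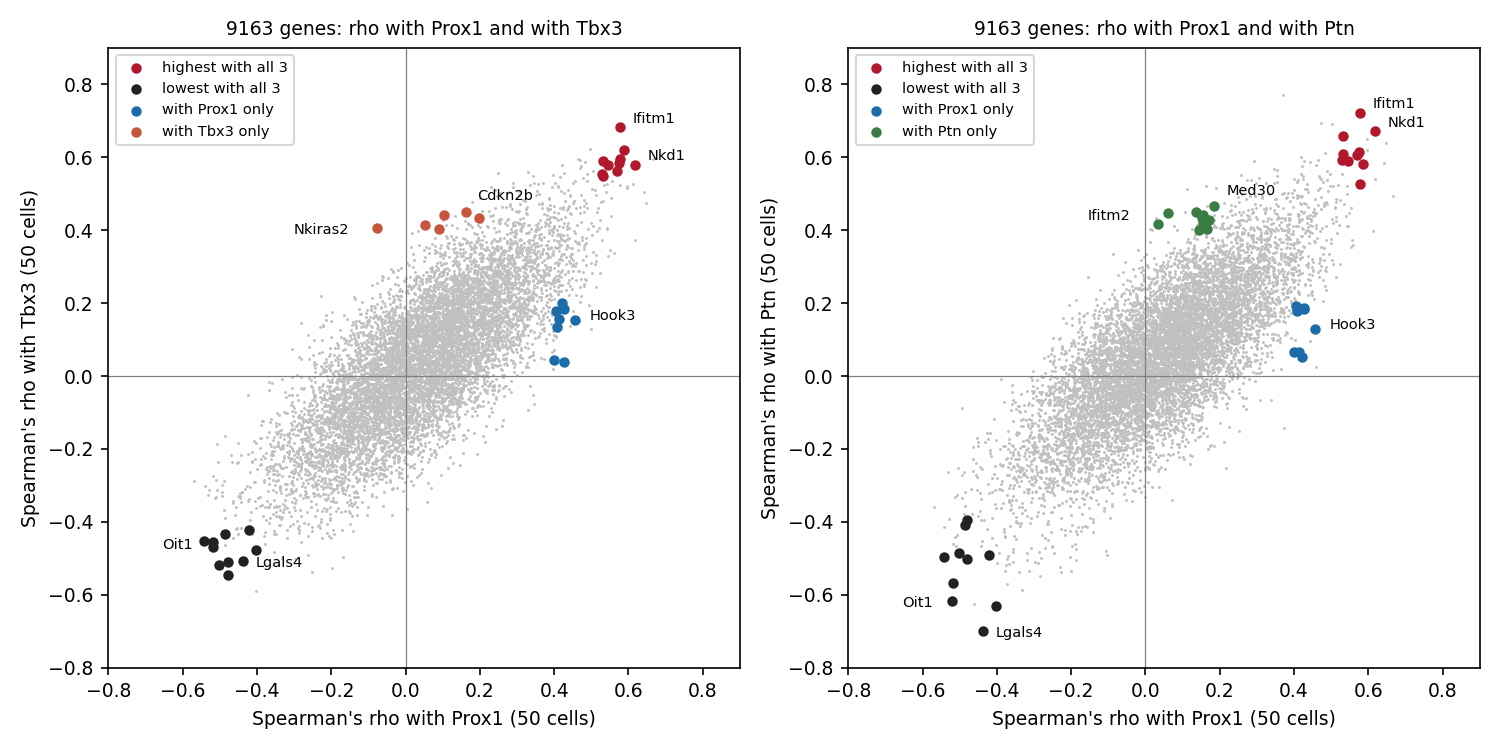
Each grey point is 1 of 9163 genes, with its rho with Prox1 on the horizontal axis and with Tbx3 (left) or Ptn (right) on the vertical axis. Colored points are the genes highest and lowest with all 3 and those that go with 1 of the 2 genes on the axes, which lie at the upper or right edge of the cloud.

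By a strict rule, few of the 9163 genes went with only 1 of the 3, which follows in part from choosing genes that vary together. The rule was a rho of 0.4 or more with the gene and under 0.2 with both others, and it held for 8 genes with Prox1, 6 with Tbx3 and 12 with Ptn. The mirror rule, -0.4 or less with the gene and above -0.2 with both others, held for 4, 2 and 3.

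For Prox1 these were Bri3, Hook3, Gm1976, Hid1, Arhgef26, Elf1, Lztfl1 and Fut8, with rhos of 0.40 to 0.46. Hook3, an adaptor that links cargo to microtubule motors, had 0.46 with Prox1, 0.15 with Tbx3 and 0.13 with Ptn, but was seen in only 10 cells. Hid1, which acts in the sorting of secretory granule cargo, was seen in 46 cells and had 0.43, 0.04 and 0.18. Elf1, an ETS factor gene, and Fut8, the core fucosyltransferase gene, each had a rho of 0.41 with Prox1 over all cells. In the second i7 group, however, they had 0.61 and 0.70 with Tbx3, so their separation from Tbx3 was absent there. Bri3 had 0.59 with Prox1 and 0.42 with Tbx3 in that group, so it did not meet the rule there either.

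For Tbx3 these were Zfand2b, Rp9, Ahr, Cdkn2b, Whamm and Nkiras2, with rhos of 0.40 to 0.45. Cdkn2b, which encodes the kinase inhibitor p15, had 0.45 with Tbx3, 0.16 with Prox1 and 0.19 with Ptn, and was seen in 21 cells. Its rho with Tbx3 was 0.49 in the first i7 group and 0.09 in the second. Ahr, the aryl hydrocarbon receptor gene, had 0.40, with 0.09 and 0.14 for Prox1 and Ptn, over 11 cells, and Nkiras2, an inhibitor of NF-kappa-B signaling, had 0.41, with -0.08 and 0.20, over 40 cells.

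For Ptn, 11 of the 12 had the same sign in both i7 groups, and the 10 with the widest gap were Dennd5a, Pafah1b1, Ifitm2, Med30, Irf5, Gstm7, Kdelr1, Prpf38a, Rida and Usp38, with rhos of 0.40 to 0.47. Pafah1b1, a regulator of the dynein motor, had 0.44 with Ptn, 0.16 with Prox1 and 0.07 with Tbx3 over 47 cells. Ifitm2 had 0.42, 0.03 and 0.13 over 49 cells, in contrast to Ifitm1 above, and carries the same doubt about shared reads. Kdelr1, a receptor that returns proteins to the endoplasmic reticulum, had 0.42, 0.16 and 0.16 over 48 cells, but in the second i7 group it had 0.35 with Prox1 and 0.50 with Tbx3, as Usp38 had 0.38 and 0.52. Irf5, an interferon regulatory factor gene, had 0.43, 0.15 and 0.14 over 18 cells. In the second i7 group Irf5 had 0.35 with Prox1, and Gstm7 had 0.38 with Tbx3.

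A partial rho given both other genes, chosen after the data were seen, ranked partly other genes first. Ephb4, an Eph receptor gene, led for Prox1 (partial rho 0.55, with plain rhos of 0.37, 0.05 and -0.14 for Prox1, Tbx3 and Ptn). Mppe1 led for Tbx3 (0.52) and Spock2 for Ptn (0.68). Bri3 and Hook3, Zfand2b, Nkiras2 and Rp9, and Med30 and Pafah1b1 were among the 5 highest for their gene and also met the rule above. Of all 77 genes picked by rule, 40 overlap another annotated gene, 33 of them on the opposite strand, and their values carry the limit stated for Prox1os.

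Wnt target genes divided. A rho of 0.3 or more was reached by 7 of 23 Wnt targets with Prox1 (8.56% of all genes reached it), by 7 with Tbx3 (8.17% of all) and by 8 with Ptn (9.12% of all). A rho of -0.3 or less was reached by 2, 1 and 1 (3.26%, 2.95% and 2.67% of all genes). The median rho of the list was 0.12, 0.05 and 0.14, beside 0.05, 0.05 and 0.06 over all genes. Nkd1, Apcdd1, the secreted inhibitors Notum (0.42, 0.46 and 0.55) and Wif1 (0.38, 0.35 and 0.40), the receptor-removing ligase gene Znrf3 (0.51, 0.51 and 0.46) and the factor gene Lef1 (0.38, 0.46 and 0.49) passed 0.3 with each of the 3. Dkk2 went the other way with each (-0.44, -0.35 and -0.39). Axin2 passed only with Prox1 (0.37, 0.17 and 0.15), and Tcf7 with Tbx3 and Ptn (0.13, 0.32 and 0.39). Lgr5, the gene on which the cDNAs were selected, had 0.21, -0.18 and -0.18, and Myc had -0.01, 0.01 and -0.01.

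S phase genes went against all 3. Of 22 genes, 16 had a rho of -0.3 or less with Prox1, 10 with Tbx3 and 13 with Ptn, beside 3.26%, 2.95% and 2.67% of all genes. A rho of 0.3 was reached by 0 with any, beside 8.56%, 8.17% and 9.12% of all genes. The medians were -0.39, -0.28 and -0.32, beside 0.05, 0.05 and 0.06 over all genes. Mcm2 had -0.44, -0.51 and -0.39, and the sliding clamp gene Pcna -0.46, -0.42 and -0.27, whereas Gins2 had -0.09, 0.00 and 0.08. The mean of the list had a rho of -0.41 with Prox1, -0.34 with Tbx3 and -0.27 with Ptn, and these were -0.45, -0.32 and -0.18 in the first i7 group and -0.32, -0.45 and -0.24 in the second. Members of the list vary together, so they are not separate observations. The 19 G2/M genes gave weaker values, with 5, 2 and 1 at -0.3 or less, beside the same 3.26%, 2.95% and 2.67% of all genes. The mean of that list turned from -0.28, -0.36 and -0.29 in the first i7 group to 0.11, 0.08 and 0.03 in the second.

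Known partners and targets of PROX1 and TBX3 were read against the same shares, 8.56%, 8.17% and 9.12% of all genes at 0.3 or more and 3.26%, 2.95% and 2.67% at -0.3 or less. Of 15 genes linked to PROX1, 3, 4 and 4 reached 0.3 with Prox1, Tbx3 and Ptn, and 0, 0 and 1 reached -0.3. They were Ctnnb1, which encodes beta-catenin (0.50, 0.31 and 0.36), Ets2 (0.47, 0.60 and 0.47), the demethylase gene Kdm1a (0.32, 0.02 and 0.20), the inhibitor genes Cdkn1b (0.18, 0.31 and 0.10) and Cdkn1c (0.25, 0.32 and 0.43), Nfkb1 (0.27, 0.13 and 0.32) and, on the negative side with Ptn, Kcnn4 (-0.35). Hnf4a, a nuclear receptor gene whose product binds PROX1, had -0.17, -0.12 and -0.20.

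Of 13 genes linked to TBX3, 2, 4 and 2 reached 0.3, and 1, 0 and 0 reached -0.3. Among them, besides Cdkn2b, were Bcl9 (0.29, 0.39 and 0.29) and the deacetylase gene Hdac5 (0.43, 0.41 and 0.40), with Nme2 on the negative side for Prox1 (-0.33). Cdkn2a, whose p19ARF product is a known target of TBX3 repression, reached 1 TPM in 0 of 50 cells, so its relation to Tbx3 was not detectable.

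Most other T-box genes were seen in few or no cells. Of 15, 10 reached 1 TPM in no cell, among them Tbx2, the closest relative of Tbx3. The share of all genes at 1 TPM in no cell was not worked out, so this count has no background. Tbx20 was seen in 49 cells, with a median of 7.63 TPM and up to 59.5, and had a rho of 0.50 with Prox1, 0.38 with Ptn and 0.13 with Tbx3. Mga was seen in 17 cells at up to 69.9 TPM, with rhos of 0.08, 0.04 and 0.07 in that order, and Tbx1, Tbx6 and Eomes in 2, 2 and 1.

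The genes of known pleiotrophin partners were uneven. Alk reached 1 TPM in 0 cells, Ptprz1 in 5 (up to 2.03 TPM), Sdc3 in 1, and Mdk, the gene of the related ligand midkine, in 1. The syndecan genes Sdc4 and Sdc1 were seen in 49 and 47 cells with medians of 61.0 and 32.9 TPM, and Ncl, the gene of nucleolin, in 48 with 101. Of the 10 members seen in 20% of cells, 2 reached 0.3 with Prox1, 0 with Tbx3 and 1 with Ptn, beside 8.56%, 8.17% and 9.12% of all genes. Sdc4 had 0.35, 0.19 and 0.35 and the receptor phosphatase gene Ptprs 0.31, 0.18 and 0.20, and 0 members reached -0.3.

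**Figure D5:**
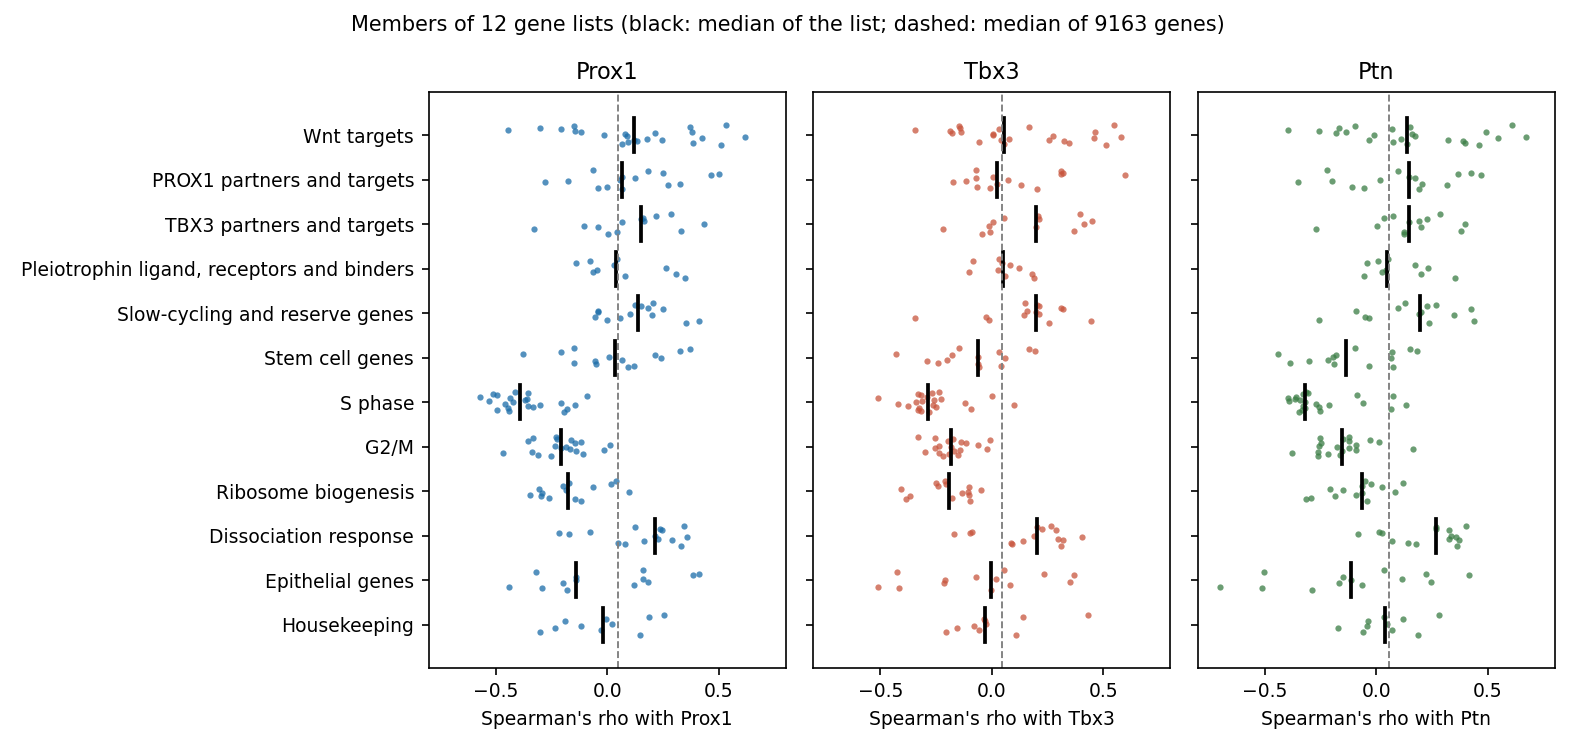
Points are the members of 12 gene lists, placed at their rho with Prox1, Tbx3 and Ptn (the vertical spread within a list has no meaning); black bars are list medians and the dashed line is the median of 9163 genes. The S phase points lie almost all to the left of 0 in each panel, and the Wnt targets spread from about -0.4 to 0.7.

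Stem cell genes gave no common direction with Prox1 and lay more to the negative side with Ptn. Their median rho was 0.04 with Prox1, -0.06 with Tbx3 and -0.14 with Ptn, beside 0.05, 0.05 and 0.06 over all genes. Positive rhos numbered 8, 5 and 5. Of 14, 2 reached 0.3 with Prox1 (Axin2 and Bmi1), 0 with Tbx3 and 0 with Ptn, beside 8.56%, 8.17% and 9.12% of all genes. At -0.3 or less were 1, 1 and 3, beside 3.26%, 2.95% and 2.67% of all genes, led by Cdca7 (-0.38, -0.43 and -0.44). With Ptn, Slc12a2 (-0.39) and Rgmb (-0.30) joined it. Of 14 slow-cycling and reserve genes, 2, 3 and 3 reached 0.3 and 0, 1 and 0 reached -0.3, beside the same shares of all genes. Ypel3, a gene linked to arrest of growth, had 0.41, 0.45 and 0.44, and Rbl2, a pocket protein gene, had -0.35 with Tbx3 but 0.06 and -0.03 with the others.

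Of 15 genes that respond to tissue dissociation, 3 reached 0.3 with Prox1, 3 with Tbx3 and 7 with Ptn (8.56%, 8.17% and 9.12% of all genes), and the difference between the 3 was not tested. Over the cells, the mean of the list had rhos of 0.18, 0.22 and 0.37 in the same order. Atf3 had 0.40 with Ptn, Junb 0.37, and Ier3 0.36 with Ptn and 0.40 with Tbx3, and with this mean held fixed the partial rhos were 0.59 for Prox1 and Tbx3, 0.58 for Prox1 and Ptn and 0.63 for Tbx3 and Ptn. Of 14 ribosome biogenesis genes, 0 reached 0.3 with any of the 3 and 2, 3 and 1 reached -0.3 (3.26%, 2.95% and 2.67% of all genes). Their medians were -0.18, -0.19 and -0.06. Of 10 housekeeping genes, Actb reached 0.3 with Tbx3 (0.26, 0.43 and 0.28) and Tbp -0.3 with Prox1 (-0.30, -0.20 and -0.06). Epithelial genes went both ways, with Cldn4 at 0.38, 0.37 and 0.42 and the intestinal homeobox gene Cdx1 at -0.32, -0.42 and -0.50.

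Among markers of other cells that express these genes elsewhere, those of lymphatic endothelium and fibroblasts were largely missing. Of 8 markers of lymphatic endothelium, in which Prox1 is a master gene, 6 reached 1 TPM in no cell, among them Flt4 and Pdpn, and Lyve1 did so in 2. The summed TPM of the list ran from 0 to 177, almost all from Nr2f2, and had rhos of -0.00, -0.08 and -0.12 with Prox1, Tbx3 and Ptn. Of 9 fibroblast markers, 6 were at 1 TPM in no cell, among them Col1a2, Col3a1 and Dcn. Their sum ran from 0 to 8.92 TPM with rhos of 0.36, -0.02 and 0.12, and Pdgfra, seen in 25 cells at up to 4.47 TPM, had 0.34 with Prox1.

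Of 7 markers of enteric glia, 4 were at 1 TPM in no cell, among them Sox10, and the sum ran from 0 to 58.1 TPM with rhos of 0.09, 0.13 and 0.13, led by Erbb3. Of 20 enteroendocrine markers, 9 were at 1 TPM in no cell, among them Chga, Neurod1 and Insm1. Others were seen often: Fev in all 50 cells (0.16, 0.34 and 0.10), Isl1 in 30 (up to 102 TPM, with 0.06, 0.03 and 0.10) and Tac1 in 13 (up to 140 TPM, with 0.04, -0.10 and -0.14). The sum ran from 17.6 to 318 TPM with rhos of 0.14, 0.10 and 0.19. Of 11 colonocyte markers, 7 were at 1 TPM in no cell, and the sum, from 0.43 to 678 TPM, had rhos of -0.41, -0.27 and -0.58, led by Ceacam1.

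Of 13 tuft cell markers, 7 were at 1 TPM in no cell, among them Pou2f3 and Trpm5, and the sum had rhos of -0.19, -0.31 and -0.23, most of it from the sorted Cd24a. Of 9 goblet cell markers, only 1 was at 1 TPM in no cell. The mucin gene Muc2 was seen in 1 cell, but Spink4 in 8 and Agr2 in 25, the latter with rhos of -0.35, -0.13 and -0.28. The goblet sum (0 to 2227 TPM) had -0.21, 0.03 and -0.18. The sum of 7 Paneth and deep crypt secretory markers ran from 0.89 to 293435 TPM and had 0.18, 0.36 and 0.17, although Defa24, with its highest values, had -0.09, 0.04 and -0.15. Of 12 immune and 8 endothelial markers, 5 and 6 were at 1 TPM in no cell, and the sums had rhos of 0.18, 0.29 and 0.11, and of 0.08, 0.01 and 0.04. The part of any of these markers in the joint variation was not tested.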

How the data were processed

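Single-cell RNA-seq was deposited by the authors as TPM for 24410 Ensembl genes in 56 libraries. The submitters' processing notes list RSEM 1.2.31, Bowtie2 2.2.9, bcl2fastq 1.8.4 and, as the genome, GRCm38.p4, without settings, annotation release or strand use. TPM hold no counts, so depth is unknown and an exact 0 is read as listed at 0. All columns matched a sample by index pair.

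The 3 genes and all gene lists were chosen with earlier results of these data known. GENCODE M21 supplied symbols (24235 IDs) and positions, and RefSeq the promoter windows. Libraries with a Pearson's r above 0.9 were averaged as 1 cell. A gene was present at 1 TPM or more, and relations were Spearman's rho on log2(TPM + 1) over 50 cells, without p-values. Other genes entered at 1 TPM or more in 20% of cells. Lists were described by their counts at a rho of 0.3 or more and -0.3 or less and by their median, beside all genes.

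Genes were named by rule: the 10 highest and lowest by rho with each gene, and the 10 most with and most against all 3. Up to 10 that went with a single gene were added, all with the same sign in both i7 groups for the genes concerned. Overlapping genes and the extreme and most frequent list members were also named. Further members of lists, and the cells named, were picked with their values in view, and the highest and lowest genes of Prox1 and some of the lowest of the other two are left out. The correlation step was tested on simulated data. Alternatives covered thresholds, pseudocounts, Pearson's r, partial rho, averaging, index groups, left-out cells, rescaled TPM and gene filters. No doublet caller was run on these values. The tools were SciPy 1.17.1, pandas 2.3.3, numpy 2.4.6 and matplotlib 3.10.9 under Python 3.11.15.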

Additional observations from a re-analysis of the deposited data

How the results depend on the processing

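Of 362 recomputed values, 328 stayed within their tolerance and 34 moved. The tolerance was a rho within 0.1, a count of genes within 1.5 times, or a count of cells within its interval. Changes of sign numbered 0, but counts have no sign to change. The rhos among the 3 genes were positive by choice, so this 0 says little. Above 0 TPM the counts of cells were 48 for Prox1, 49 for Tbx3, 42 for Ptn and 39 for all 3, and at 10 TPM they were 30, 35, 19 and 17. With a pseudocount of 0.1, Pearson's r was 0.45 for Prox1 and Tbx3 and 0.44 for Prox1 and Ptn. Given the remaining gene, the partial rho, chosen after seeing the data like those given list means and the values without the cell highest in Defa24 or the pair N708-N517 and N709-N507, was 0.36 for Prox1 and Tbx3, 0.32 for Prox1 and Ptn and 0.46 for Tbx3 and Ptn. In the second i7 group, rho of Prox1 and Ptn was 0.39, and in the i5 groups rho of Tbx3 and Ptn was 0.53 and 0.82. Leaving out an i5 index at a time gave 0.60 to 0.82 for Tbx3 and Ptn (highest without N505), and 225 to 444 genes for Prox1 and 189 to 383 for Tbx3 at a rho of 0.4 or more (highest without N508). Genes at 0.4 or more with Prox1, Tbx3 and Ptn numbered 1149, 1175 and 964 in the second i7 group (18 cells), 794, 960 and 840 in the first i5 group (26 cells), 346, 312 and 417 in the second (27 cells), and 346, 363 and 417 in the first i7 group (32 cells). The median rho of Wnt targets was 0.24 with Prox1 and 0.20 with Tbx3 in the second i7 group, 0.30 and 0.16 in the first i5 group, and 0.017 with Ptn in the second i5 group. That of S phase genes was -0.50 and -0.27 with Prox1 in the i5 groups and -0.17 with Ptn in the first i7 group. The cause of these differences was not tested. No paired analysis was possible because the samples form 1 group. Without counts, how precisely low values are known cannot be given, and 1 mouse allows no statement on differences between animals.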
